A study of Mus musculus with 11 samples.

Results

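CBL0137 alone was compared with vehicle in spontaneous neuroblastomas of Th-MYCN mice. The comparison is between the 6 libraries labelled with these treatments (3 CBL0137 and 3 vehicle) of the 11 libraries in the series. The spread behind each SE and p-value was estimated from all 11. Every gene with at least 1 TPM in at least 2 of the 11 was tested, which was 15497 of 24411 genes. TPM are transcript abundances that sum to 1000000 in each library. All mice were homozygous for the Th-MYCN transgene, in which the tyrosine hydroxylase promoter drives MYCN in sympathetic neuroblasts, so vehicle tumours carry the transgene as treated ones do. Once a tumour was felt at about 5 mm, a mouse received 1 dose of vehicle into the peritoneum or of CBL0137 at 40 mg/kg into a vein, and the tumour was frozen 16 h later. The route therefore differed between the groups together with the drug, and the effects of route and drug cannot be told apart. Total RNA of whole tumours was sequenced after ribosomal RNA depletion, with 3 mice per group per the labels. In such bulk samples, fewer cells of a type and less RNA per cell cannot be told apart.

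CBL0137 is a curaxin, a DNA-binding compound that loosens nucleosomes without breaking strands, and the histone chaperone FACT becomes trapped where it binds. Curaxins are known for activating p53, for dampening NF-kB transcription and for a type I interferon response to transcripts from silent chromatin. Interferon acts through STAT and IRF factors on promoter elements with repeated GAAA, and in tumours it acts on macrophages and other stromal cells as well as on the cancer cells. Sympathetic neuroblastoma cells make catecholamines with tyrosine hydroxylase (Th), dopa decarboxylase (Ddc) and dopamine beta-hydroxylase (Dbh). MYCN is known for driving ribosome and amino acid supply, both of which are described here for their own genes.

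The tumour label was checked against 12 neuroblastoma markers, none of which was at 0 in any library and whose summed TPM were 1353 to 1613 in vehicle and 1888 to 2308 after CBL0137. Hand2, a sympathetic transcription factor, stood at 170.2, 139.7 and 178 TPM in vehicle replicates 1, 2 and 3 and 147, 132 and 129 TPM in CBL0137 replicates 1, 2 and 3. All values below follow this order, with vehicle first. Mouse Mycn, a different gene from the transgene, stood at 5.69, 6.46 and 5.94 TPM in vehicle tumours and 5.97, 6.15 and 10.2 TPM in treated ones (log2 change 0.23 ± 0.38, SE, limma adjusted p = 0.747, and below 0 under quantile normalization), and the groups overlapped.

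Some libraries stood apart. CBL0137 replicate 3 had a mean correlation of 0.965 with its group, against 0.973 to 0.981 for the other 5 libraries, and carried the highest lymphocyte signal. The summed TPM of 11 B cell markers was 2.71, 2.76 and 4.24 in vehicle and 6.45, 32.8 and 191 after CBL0137. For 15 T cell markers the sums were 11.7, 12.4 and 11.2 in vehicle and 14.9, 27.4 and 90.03 after CBL0137. Cd3e, which defines T cells, stood at 0, 0.16 and 0 and 0.29, 0.3 and 4.91 TPM. Of the 14 tested, 10 had all CBL0137 libraries above all vehicle libraries and 1 had all below (18.6% and 19.1% of all tested genes). The latter was Bcl11b, at 3.9, 3.17 and 2.66 and 1.2, 0.9 and 1.78 TPM. For 18 macrophage markers the sums were 875, 1059 and 1039 in vehicle and 1939, 1807 and 3645 after CBL0137. Fibroblast and pericyte markers (17) summed to 577, 356 and 480 in vehicle and 900, 785 and 1826 after CBL0137, and 14 endothelial markers to 97.6, 90.3 and 60.8 against 201, 133 and 348. In each of these 5 lists the sums of all CBL0137 libraries lay above those of all vehicle libraries and replicate 3 was the highest. Fewer single markers were called higher (limma adjusted p under 0.05). These were 1 of 11 for B cells, 0 of 14 for T cells, 9 of 18 for macrophages, 4 of 17 for fibroblasts and pericytes and 3 of 14 for endothelium. Of the B and T cell markers, 10 and 11 had a median below 1 TPM over the 6 libraries. Lyz2 alone gave 536, 695.5 and 661 TPM of the macrophage sums in vehicle. Kidney markers reached 454 TPM in vehicle replicate 2 and at most 4.05 in the others, red cell markers 14984 TPM and skeletal muscle markers 704 TPM in CBL0137 replicate 2, and liver and pancreas markers 381 TPM in vehicle replicate 1. Their part in the results was not tested, so the results below are given with and without CBL0137 replicate 3.

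**Figure D1:**
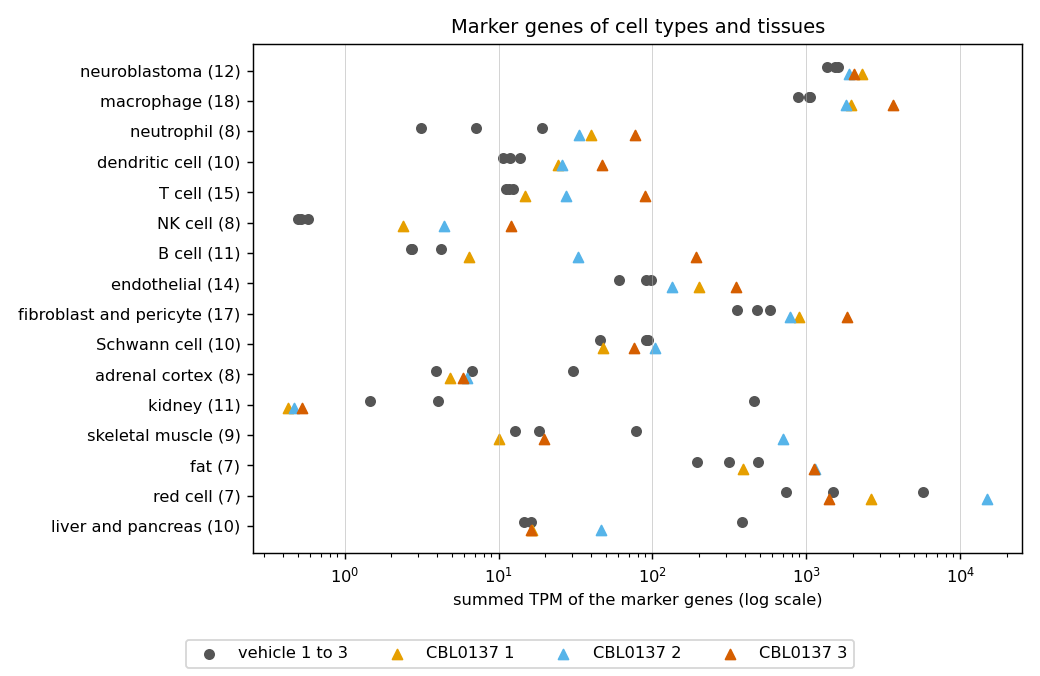
Summed TPM of marker genes of 16 cell types and tissues in the 6 libraries, on a log axis, with the number of marker genes in brackets. Circles are vehicle libraries and triangles CBL0137 libraries, and the B cell sum of CBL0137 replicate 3 (191 TPM) is far to the right of the vehicle sums.

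After CBL0137, 774 genes rose and 175 fell (limma on log2(TPM + 1), Benjamini-Hochberg adjusted p under 0.05), which is 4.99% and 1.13% of the 15497 tested. The rises were large and the falls small: 653 of the rises but 8 of the falls were at least 2-fold, and the median change was 1.58 among rises and -0.50 among falls (log2). A list of 167 tested interferon-stimulated genes held 141 of the rises (median 3.18) and 28 MHC class I and peptide loading genes held 20 (median 2.07, and 12 without vehicle replicate 3), with 0 falls in either. Isg15, the ubiquitin-like modifier that marks an interferon response, went from 2.96, 2.73 and 2.09 TPM to 134, 112 and 313 TPM. Outside these lists, 613 of 15302 genes rose, 495 of them at least 2-fold, with a median of 1.41, and all 175 falls lay there. The interferon list need not hold every interferon-stimulated gene, and whether the rises outside it depend on interferon was not tested. The median over all tested genes was -0.01, and it stayed between -0.10 and 0.04 under each alternative scaling, filter or left-out library.

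**Figure D2:**
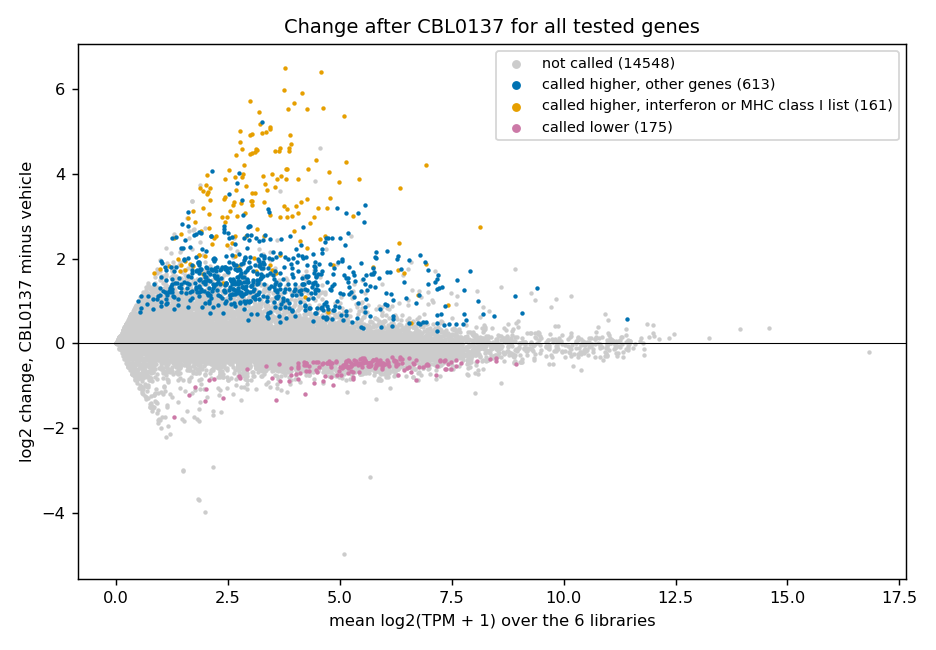
Log2 change after CBL0137 against the mean log2(TPM + 1) over the 6 libraries for the 15497 tested genes. Called rises outside the interferon and MHC class I lists (613, blue) reach 5.24 and called falls (175, pink) lie close below 0, with a median of -0.50.

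CBL0137 replicate 3 was furthest from vehicle in 719 of the 774 rises and in 132 of the 175 falls. Over the 613 rises outside the interferon and MHC class I lists, the median distance from the vehicle mean was 1.12, 1.07 and 2.06 in CBL0137 replicates 1, 2 and 3. Over the falls it was -0.43, -0.49 and -0.61. In fits that left out 1 of the 6 libraries in turn, called leave-one-out fits here, CBL0137 replicate 3 was 1 such library. Without it every called gene kept its sign, 511 of the 774 rises and 17 of the 175 falls were still called, and the median changes were 1.23 and -0.47. Outside the interferon and MHC class I lists 357 of the 613 rises were still called without it. Of the rises, 734 were still called without at least 1 of the CBL0137 libraries, 496 whichever CBL0137 library was left out, and 293 in each of the 6 leave-one-out fits. Of the falls these numbers were 105, 15 and 4. No called gene could change its sign without replicate 3, because all 949 had groups that do not overlap. The kept signs therefore carry no support. Such groups occur in 18.6% of tested genes upwards and 19.1% downwards.

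The genes that rose furthest outside the interferon and MHC class I lists are described first. Serpina3g, a protease inhibitor of activated leukocytes, stood at 0.51, 1.14 and 0.18 TPM in vehicle tumours and 18.2, 37.7 and 277 TPM in treated ones, a log2 change of 5.24 ± 0.80 (SE, limma adjusted p = 0.00524). It rose in every CBL0137 library and most in replicate 3, and since it belongs to a cluster of closely similar serpin genes its reads may be shared. Ubd, the ubiquitin-like protein FAT10 that targets proteins to the proteasome, stood at 0, 0.26 and 0 and 15.8, 6.21 and 47.4 TPM (4.06 ± 0.75, adjusted p = 0.0131). Its vehicle levels were at or near 0, and its call was lost without vehicle replicate 1 or 3 (adjusted p up to 0.0568). Il1rn, the decoy that blocks the interleukin 1 receptor, stood at 2.68, 2.35 and 2.49 and 31.6, 15.4 and 58.9 TPM (3.18 ± 0.39, adjusted p = 0.00149).

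Cd52, a glycoprotein of lymphocytes and myeloid cells, stood at 11.3, 17 and 14.5 TPM in vehicle tumours and 95.3, 107 and 298 TPM in treated ones (3.27 ± 0.37, adjusted p = 0.000871). Ms4a6d, a membrane protein of macrophages, stood at 9.62, 10.3 and 7.75 and 74.3, 76.4 and 137 TPM (3.19 ± 0.24, adjusted p = 0.000132). In both the groups were apart and replicate 3 was the highest library. Cd69, an early activation antigen of lymphocytes, rose from at most 0.08 TPM in vehicle to 3.45, 5.69 and 23.5 TPM (adjusted p = 0.0143). That call was lost without vehicle replicate 1, 2 or 3 (adjusted p up to 0.0582). Clec2d, a ligand of an inhibitory receptor of natural killer cells, stood at 11.7, 11.7 and 9.87 and 64.6, 78.2 and 203 TPM (3.08 ± 0.38, adjusted p = 0.00157).

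**Figure D3:**
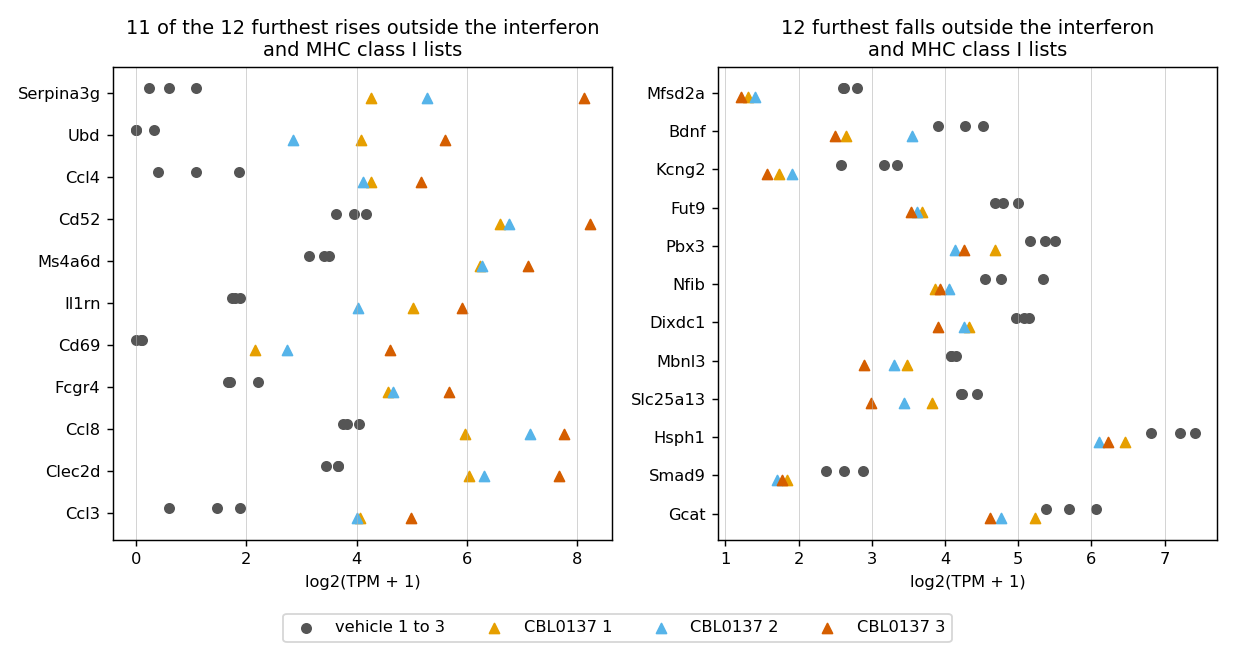
Log2(TPM + 1) of 11 of the 12 furthest rises (left) and the 12 furthest falls (right) outside the interferon and MHC class I lists. Circles are vehicle and triangles CBL0137 libraries, and no gene shows overlap between the groups. CBL0137 replicate 3 is the highest of the 6 libraries in each of the 11 rises, and the falls are closer together.

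Of the CC chemokines, 3 were among the furthest rises. Ccl3 and Ccl4, which attract monocytes and T cells, stood at 0.51, 1.77 and 2.69 and 0.32, 2.65 and 1.13 TPM in vehicle. After CBL0137 they stood at 15.6, 15.1 and 30.5 and 18.1, 16.3 and 34.8 TPM (log2 changes 3.03 ± 0.42 and 3.39 ± 0.39, adjusted p = 0.00303 and 0.00103). Their annotated spans on chromosome 11 overlap (83647843 to 83649378 and 83648624 to 83664683, mm10), so reads of one may be counted for the other. Ccl8, a monocyte chemokine, stood at 12.4, 13.1 and 15.5 and 61.7, 139 and 216 TPM (3.09 ± 0.47, adjusted p = 0.00559), with the groups apart.

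Receptors by which phagocytes take up antibody-coated or modified particles rose in 21 of 33 measured members (63.6%, median 1.5) and fell in 0. Outside interferon and MHC class I this was the largest share of any list, leaving out families put together after their values were seen. Fcgr4, an activating Fc receptor, stood at 2.2, 3.62 and 2.28 TPM in vehicle tumours and 22.7, 24.2 and 50 TPM in treated ones (3.10 ± 0.34, adjusted p = 0.0007496). Msr1, a scavenger receptor of macrophages, stood at 14.9, 16.8 and 12.1 and 70.4, 57.3 and 111 TPM (2.33 ± 0.25, adjusted p = 0.000717), and Clec4n (dectin-2), a receptor for fungal mannans, at 19.7, 24.1 and 19.2 and 58.4, 60.6 and 92.9 TPM (1.68 ± 0.21, adjusted p = 0.00179). Each had all CBL0137 libraries above all vehicle libraries, with replicates 1 and 2 close together and replicate 3 higher. The shared signalling chain Tyrobp (lost without vehicle replicate 1, 0.0508) and the oxidase subunit Cybb, which makes superoxide, were among the other called members. Without replicate 3 the list had 22 called members and a median of 1.18, and without vehicle replicates 1, 2 and 3 in turn it had 16, 15 and 12. Called members of the lists below without each vehicle replicate are given in the same order. Of 22 C-type lectins measured, 8 rose (median 1.19, and 6, 6 and 5 without a vehicle replicate), and Clec4a2, an inhibitory lectin of dendritic cells, went from 1.71, 1.48 and 1.51 to 5.5, 5.32 and 7.81 TPM (1.47 ± 0.15, adjusted p = 0.000584). The macrophage marker sums given above moved with these genes, and 6 of the 33 Fc receptor and phagocytosis genes are themselves macrophage markers. Their part was not tested.

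Toll-like receptors and their partners rose in 12 of 24 measured members (50%, median 1.04) and fell in 0. Tlr13, a receptor for bacterial ribosomal RNA in endosomes, stood at 5.12, 4.53 and 4.13 and 12.9, 13.8 and 22.4 TPM (1.60 ± 0.19, adjusted p = 0.00124). Myd88, the adaptor that most of these receptors and the interleukin 1 receptor use, stood at 4.11, 4.05 and 2.91 and 11.7, 10.7 and 22.3 TPM (1.70 ± 0.25, adjusted p = 0.00463). Ly86 (MD-1), the partner of the receptor-like Cd180, stood at 5.16, 6.3 and 4.05 and 25.1, 24.5 and 67 TPM (2.55 ± 0.38, adjusted p = 0.00491). The groups were apart in all 3, and the list had 10 called members without replicate 3 (median 0.74) and 8, 5 and 6 without a vehicle replicate. The other called members were Tlr1, Tlr2, Tlr4, Tlr7, Tlr8 and Tlr9, the transporter Unc93b1 that brings endosomal receptors to their place, Cd180 and the brake Irak3.

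Lysosomal proteases and lysosome genes rose in 13 of 27 members (48.1%, median 0.92, and 11 with a median of 0.67 without replicate 3). Without a vehicle replicate the called members were 3, 4 and 2. Ctss, the cathepsin that trims the invariant chain for MHC class II, stood at 57.9, 61.9 and 60.9 TPM in vehicle tumours and 190.3, 174 and 373 TPM in treated ones (1.92 ± 0.25, adjusted p = 0.00203). The vehicle libraries lay within a few TPM of each other and every CBL0137 library was far above them. Ctsh, an aminopeptidase, and Lgmn, an asparaginyl endopeptidase, rose by 1.60 ± 0.25 and 1.28 ± 0.23 (adjusted p = 0.00653 and 0.01101), the second call being lost without vehicle replicate 3 (0.0557). Complement rose in 7 of 22 members (31.8%, median 1.36, 5 with a median of 0.84 without replicate 3, and 5, 5 and 4 without a vehicle replicate). C1qa and C1qb, chains of the first complement component, stood at 60.4, 68.1 and 76.6 and 75.2, 87.4 and 90.7 TPM in vehicle. After CBL0137 they stood at 193, 176 and 357 and 207, 183 and 387 TPM (1.74 ± 0.28 and 1.53 ± 0.26, adjusted p = 0.00677 and 0.00966). C3ar1, a receptor for a complement fragment, rose by 1.55 ± 0.25 (adjusted p = 0.00749). C1qa and C1qb are also macrophage markers.

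The stretches before the start of Ctss, Myd88 and Clec2d are shown because each holds a GAAANNGAA word (capitals, N any base, searched on both strands), the spacing to which IRF factors are known to bind, although none of these genes is on the interferon list. The word stands in 8.56% of all 32851 promoter windows (250 bases before to 50 after each start, RefSeq, GRCm38.p6). The stretches run 5′ to 3′ on the gene's strand and lie at chr3:95526745-95526785 (+), chr9:119340030-119340078 (-) and chr6:129180406-129180454 (+).
Ctss: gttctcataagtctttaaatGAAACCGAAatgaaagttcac
Myd88: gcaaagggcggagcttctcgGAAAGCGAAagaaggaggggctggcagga
Clec2d: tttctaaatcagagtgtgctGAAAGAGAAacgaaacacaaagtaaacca
The words begin 21, 40 and 189 bases before the start. A match describes letters and not binding. Since 77.0% of called rises and 78.3% of called falls have a window in the table, under the 80% set for such a share, no share is given for them. Among the 14 lists with windows for at least 80% of their genes, the word stood in 16.1% of the windows of the inflammasome, necroptosis and caspase list, in 14.7% of those of the TNF superfamily and in 0 to 8.43% of those of the other 12 lists.

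Interleukins and their receptors rose in 17 of 33 members (51.5%, median 1.13), and 7 were called without replicate 3 (median 0.87) and 7, 2 and 1 without a vehicle replicate. Il18, which is released by inflammasomes, stood at 2.5, 2.73 and 2.88 and 9.38, 11.3 and 19.6 TPM (1.90 ± 0.30, adjusted p = 0.00612). Il1a, an alarm cytokine, stood at 3.24, 3.51 and 2.55 and 11.5, 6.49 and 14 TPM (1.46 ± 0.27, adjusted p = 0.0132), a call lost without vehicle replicate 3 (0.0655). Il6, an acute-phase cytokine, stood at 1.04, 0.11 and 0.73 and 2.38, 3.06 and 4.62 TPM (1.43 ± 0.29, adjusted p = 0.0186). The groups were apart in these 3 genes, but Il6 was low in every library and its call was lost without CBL0137 replicate 3 (0.0641) and without vehicle replicate 2 or 3. Among the brakes on cytokine signals 6 of 23 rose, while the list's median was 0.16 and turned to -0.03 under quantile normalization. Without replicate 3, 3 were called (median 0.04), while 3, 3 and 2 were called without a vehicle replicate. Besides Il1rn the rises were Socs1, Socs2 and Socs3, which block cytokine receptor kinases, the phosphatase Ptpn6 (SHP-1) and the NF-kB inhibitor Nfkbia. Socs2 stood at 10.1, 11.2 and 8.41 and 17.2, 17 and 21 TPM (0.83 ± 0.14, adjusted p = 0.00999, and 0.0524 without vehicle replicate 3). Ptpn6 rose by 2.17 ± 0.38 (adjusted p = 0.0105).

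Of the TNF superfamily, 8 of 32 members rose (25%, median 0.74, 5 with a median of 0.38 without replicate 3, and 3, 4 and 1 without a vehicle replicate). Tnfsf10, the death ligand TRAIL, stood at 0.56, 0.78 and 0.12 and 5.35, 5.17 and 18.1 TPM (2.64 ± 0.45, adjusted p = 0.00893). Tnfrsf1a, the main TNF receptor, went from 5.03, 4.86 and 3.62 to 9.77, 14.6 and 24.7 TPM (1.58 ± 0.28, adjusted p = 0.011, and 0.0566 without vehicle replicate 3). Cd40, the receptor by which T cells activate antigen-presenting cells, rose by 2.28 ± 0.42 (adjusted p = 0.0135), a call lost without vehicle replicate 1 or 3 (up to 0.0560). Genes that carry out inflammatory cell death rose in 9 of 27 members (33.3%, median 0.66, 7 with a median of 0.44 without replicate 3, and 4, 3 and 3 without a vehicle replicate). Mlkl, which permeabilises the membrane in necroptosis, stood at 1.65, 0.72 and 0.81 and 8.79, 9.23 and 25.4 TPM (2.78 ± 0.39, adjusted p = 0.00337). Its activating kinase Ripk3 stood at 2.05, 1.05 and 0.99 and 5.29, 5.36 and 9.17 TPM (1.68 ± 0.26, adjusted p = 0.00613). Casp1, the inflammasome protease that matures interleukins, stood at 1.77, 2.91 and 2.34 and 14.4, 12.8 and 34.1 TPM (2.56 ± 0.34, adjusted p = 0.00234). These 3 genes had no overlap between groups and were called in each of the 6 fits that left out 1 library.

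The stretches of Ubd and Il6 are shown for a GGGANTTTC word, a common form of the NF-kB element, which stands in 1.11% of all windows. They lie at chr17:37193666-37193714 (+) and chr5:30013050-30013098 (+), and the words (capitals) begin 206 and 44 bases before the start.
Ubd: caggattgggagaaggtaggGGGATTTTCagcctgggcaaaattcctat
Il6: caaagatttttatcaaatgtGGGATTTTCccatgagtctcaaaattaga
Both genes rose in all 3 CBL0137 libraries, and Ubd, the further of the pair, had its lowest CBL0137 value in replicate 2 and not in replicate 1.

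Of 21 leukocyte adhesion genes 10 rose (47.6%, median 1.38, 7 with a median of 0.96 without replicate 3, and 5, 5 and 4 without a vehicle replicate). Cd53, a leukocyte tetraspanin, stood at 11.4, 10.8 and 9.7 and 35, 40.4 and 89.7 TPM (2.14 ± 0.28, adjusted p = 0.00233), and Cd48 and Cd84, adhesion receptors of the SLAM family, rose by 1.92 ± 0.29 and 1.44 ± 0.22 (adjusted p = 0.00489 and 0.00535). Of 30 matrix remodelling genes 9 rose (30%, median 1.13, 5 with a median of 0.79 without replicate 3, and 5, 3 and 2 without a vehicle replicate). Mmp13, a collagenase, stood at 1.33, 1.52 and 1.44 TPM in vehicle tumours and 9.78, 9.55 and 20.8 TPM in treated ones (2.48 ± 0.29, adjusted p = 0.00115). Timp1, an inhibitor of such enzymes, stood at 14.1, 10 and 6.84 and 49, 46.8 and 96.9 TPM (2.49 ± 0.40, adjusted p = 0.00691). Protease and inhibitor thus rose side by side in all 3 CBL0137 libraries. Plau, the urokinase that activates plasminogen, rose by 2.09 ± 0.38 (adjusted p = 0.0119), a call lost without vehicle replicate 1 or 3 (up to 0.0577). The endothelial and fibroblast marker sums given above moved with these lists and their part was not tested.

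Metabolic and transport genes of activated leukocytes rose in a smaller share. Of 30 immune metabolism genes 8 rose (26.7%, median 0.37), but 4, 6 and 2 were called without CBL0137 replicates 1, 2 and 3 in turn (median 0.20 without the last) and 3, 2 and 1 without a vehicle replicate. Irg1, which makes itaconate in macrophages, stood at 0.39, 0.08 and 0.05 and 8.67, 2.06 and 15.9 TPM (2.77 ± 0.57, adjusted p = 0.0211), varied widely among the CBL0137 libraries and was called in 1 of the 6 leave-one-out fits (adjusted p up to 0.0854). Upp1, uridine phosphorylase, stood at 0.73, 2.13 and 1.31 and 8.34, 4.7 and 12.4 TPM (1.95 ± 0.32, adjusted p = 0.00805), and Slc11a1, a metal transporter of the phagosome, rose by 1.60 ± 0.28 (adjusted p = 0.00976, and 0.0504 without vehicle replicate 3). Among 247 solute carriers 7 rose and 2 fell (2.8% and 0.8%, against 4.99% and 1.13% of all tested genes), with a median of -0.01, and without vehicle replicate 1 or 3 the rises were 4 and 2. Those that rose furthest were Slc28a2, a nucleoside carrier, and Slc15a3, a lysosomal peptide carrier, at 2.55 ± 0.37 and 2.04 ± 0.33 (adjusted p = 0.00406 and 0.00659). Of 47 TRIM ubiquitin ligases 8 rose (17.0%) although the list's median was 0.06 and turned to -0.02 under quantile normalization. Trim30a stood at 1.85, 2.4 and 2.28 and 31.3, 31.4 and 96.9 TPM (3.88 ± 0.39, adjusted p = 0.000482), Trim30d, a close copy that may share its reads, at no more than 0.05 TPM in vehicle and 3.45, 4.08 and 7.54 TPM, and Trim21, an intracellular antibody receptor, at 0.31, 0.95 and 0.71 and 7.06, 7.2 and 17.9 TPM. All 8 called TRIM genes are also on the interferon list, and none of the 39 TRIM genes outside it was called (median 0.01).

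**Figure D4:**
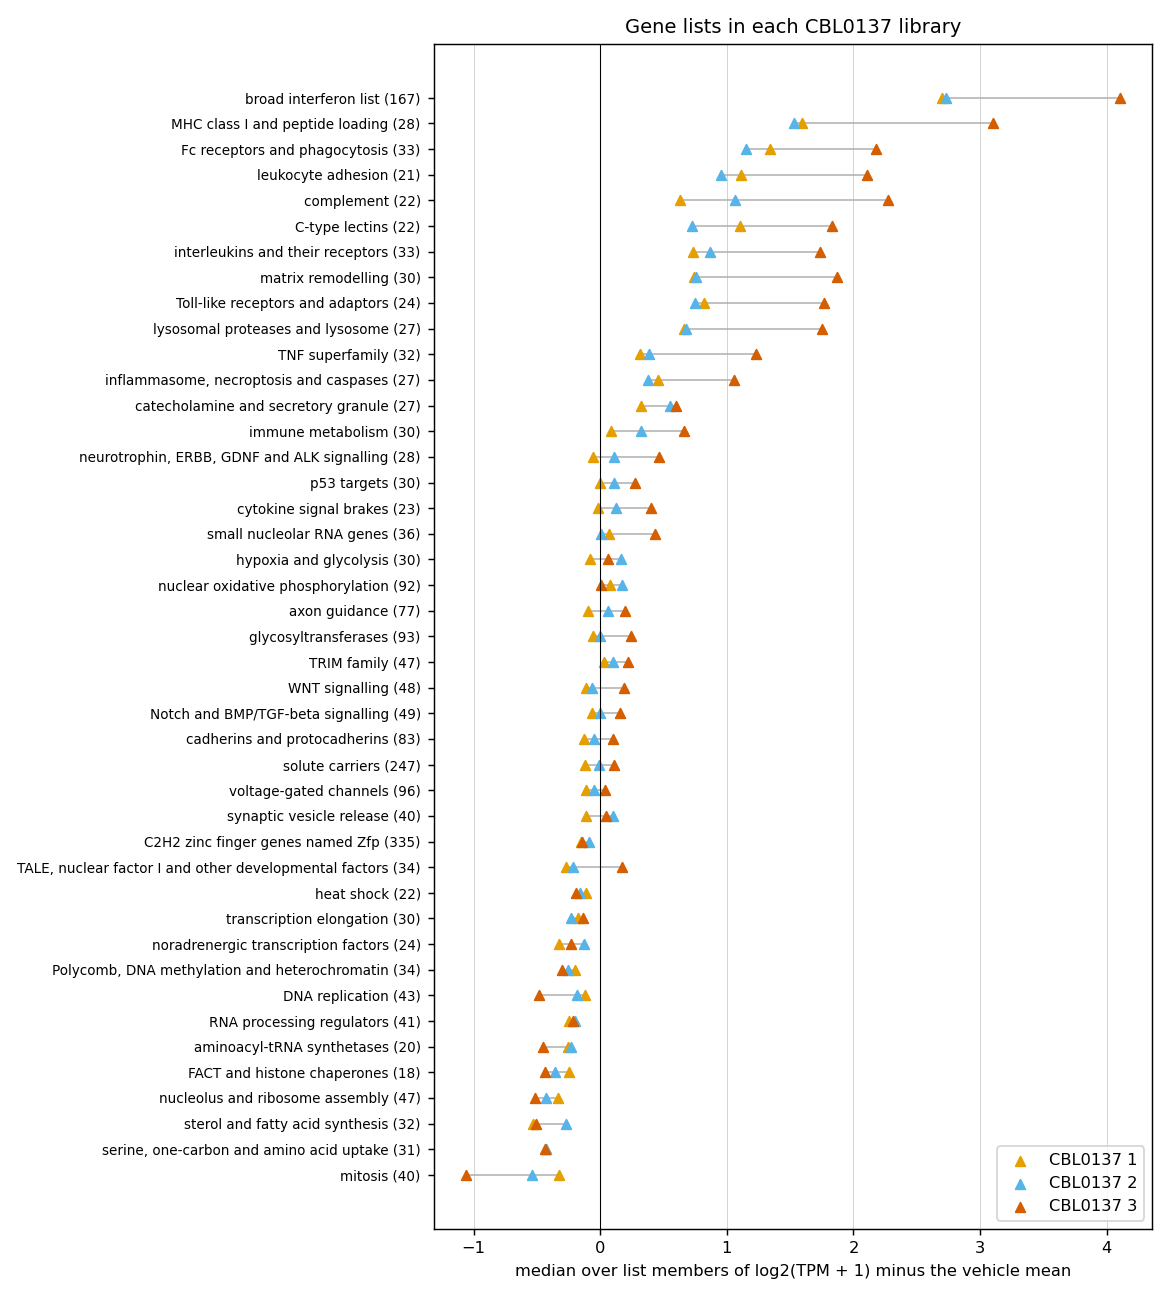
Median over the tested members (number in brackets) of log2(TPM + 1) minus the vehicle mean in each CBL0137 library, for 43 gene lists. CBL0137 replicate 3 lies far to the right for immune and matrix lists and furthest to the left for mitosis (-1.06), while the serine, one-carbon and amino acid list has the 3 libraries at -0.43, -0.43 and -0.44.

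Of 31 genes of serine and one-carbon metabolism and amino acid uptake 4 fell and 0 rose (12.9%, against 1.13% of all tested genes), with a list median of -0.49. Unlike in the immune lists, that median was close to equal in the 3 CBL0137 libraries, at -0.43, -0.43 and -0.44 from the vehicle mean. In the vehicle libraries it varied, at 0.20, -0.19 and 0.0009. Asns, asparagine synthetase, stood at 107, 90 and 107 TPM in vehicle tumours and 62.6, 66.8 and 50 TPM in treated ones (log2 change -0.76 ± 0.13, adjusted p = 0.0103). Psat1, a serine synthesis enzyme, stood at 195, 169.9 and 187 and 118, 117 and 94 TPM (-0.75 ± 0.14, adjusted p = 0.0158), and Atf4, the transcription factor that activates both in amino acid shortage, at 202, 148 and 176 and 119.7, 129 and 110 TPM (-0.54 ± 0.12, adjusted p = 0.0305). In each the lowest vehicle library lay above the highest CBL0137 library. Slc7a1, the arginine and lysine carrier, was the remaining call, at 51.2, 31.1 and 36.8 and 23.1, 20.7 and 24.5 TPM (-0.75 ± 0.19, adjusted p = 0.0471, called in 1 of the 6 leave-one-out fits, up to 0.133). Without CBL0137 replicate 3 the list had 1 called member and a median of -0.43, without CBL0137 replicate 1 it had 2, and without a vehicle replicate 1, 6 and 0. Asns was still called without CBL0137 replicate 3 (adjusted p = 0.0254), Psat1 and Atf4 were not (0.0542 and 0.113), nor were these 2 without vehicle replicate 1 or 3, and the call of Asns was lost without vehicle replicate 3 (0.0566).

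Aminoacyl-tRNA synthetases, which attach amino acids to their transfer RNAs, fell in 4 of 20 members (20%, median -0.28), and 2 were called without replicate 3 (median -0.20) and 1, 2 and 0 without a vehicle replicate. Cars, the cysteine enzyme, stood at 44.7, 28.6 and 36.6 and 21.5, 20.1 and 19.4 TPM (-0.80 ± 0.15, adjusted p = 0.0137). Tars and Gars, for threonine and glycine, stood at 82.5, 67.1 and 72.1 and 239.7, 229.9 and 225 TPM in vehicle. After CBL0137 they stood at 52.3, 52.9 and 44.5 and 168, 172 and 141 TPM (-0.56 ± 0.10 and -0.53 ± 0.11, adjusted p = 0.0141 and 0.0185). The 3 CBL0137 libraries of each gene were close together and below vehicle, but the call of Cars was lost without vehicle replicate 3 (0.0655), that of Tars without vehicle replicate 1 or 3 (up to 0.0597) and that of Gars in 4 of the 6 leave-one-out fits (up to 0.0711, and 0.0563 without CBL0137 replicate 3). The stretches before the start of Asns, Gars and Tars are shown for a TGATGNAA word, the form of ATF4-binding elements, which stands in 3.97% of all windows and in 20% of the 30 windows of the serine, one-carbon and amino acid list (26 of its 31 genes have a window), against 0 to 6.45% in the other 13 lists with windows for at least 80% of their genes. They lie at chr6:7693210-7693252 (-), chr6:55037951-55037998 (+) and chr15:11399659-11399693 (-), with the word in capitals, read on the opposite strand in Gars and Tars, and beginning 23, 30 and 15 bases before the start.
Asns: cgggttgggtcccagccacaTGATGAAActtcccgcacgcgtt
Gars: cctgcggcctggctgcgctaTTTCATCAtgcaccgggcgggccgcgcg
Tars: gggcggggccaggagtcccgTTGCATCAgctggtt

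Genes of the nucleolus and of ribosome assembly fell in 13 of 47 members (27.7%) and rose in 0, with a median of -0.43 that was -0.34, -0.43 and -0.52 in CBL0137 replicates 1, 2 and 3. Utp20, a component of the particle that matures small-subunit ribosomal RNA, stood at 41.6, 41.1 and 37 and 27.2, 25.1 and 26.1 TPM (-0.59 ± 0.11, adjusted p = 0.0166, lost without vehicle replicate 1 or 2, up to 0.0673). Utp6, of the same particle, stood at 58.4, 59.9 and 59.4 and 44.4, 45.8 and 40.5 TPM (-0.44 ± 0.09, adjusted p = 0.0183). Ltv1, which helps export the small subunit, stood at 73.9, 77.4 and 67.9 and 55.4, 50.2 and 47.5 TPM (-0.51 ± 0.11, adjusted p = 0.02501). All 3 fell by small amounts with groups that did not overlap. Without CBL0137 replicates 1, 2 and 3 in turn the list had 7, 4 and 1 called members (median -0.39 without the last), and without a vehicle replicate 0, 0 and 1. Without CBL0137 replicate 3, Utp6 and Ltv1 stood at adjusted p = 0.0609 and 0.0909, and both calls were also lost without vehicle replicate 1, 2 or 3 (up to 0.0858 and 0.0911), and that of Ltv1 without CBL0137 replicate 2. The RNA helicase Ddx21 was another called member, at 118, 107 and 106 and 79.4, 69.8 and 69.3 TPM (called in 1 of the 6 leave-one-out fits, up to 0.117).

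Sterol genes fell in 2 of 32 members (6.2%, median -0.44), and 0 were called without replicate 3 (median -0.38) and at most 1 without any other library. Stard4, a sterol carrier, stood at 24, 18.5 and 17.5 and 11, 14.7 and 9.79 TPM (-0.72 ± 0.18, adjusted p = 0.0467, and 0.161 without replicate 3). Its call held in 1 of the 6 leave-one-out fits.

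**Figure D5:**
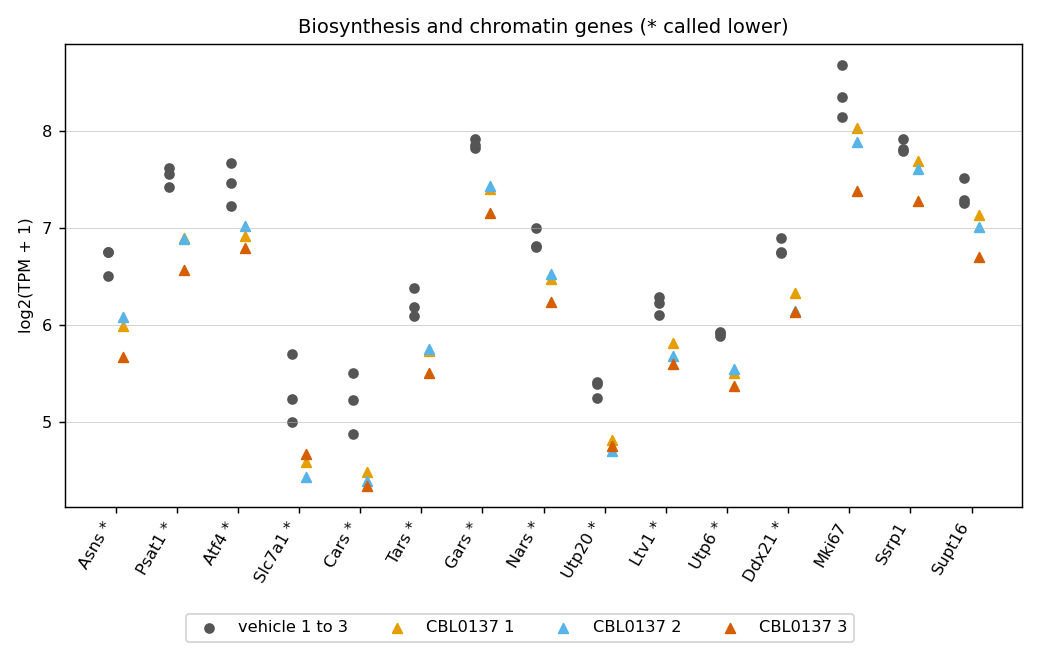
Log2(TPM + 1) of amino acid, tRNA synthetase, nucleolar, proliferation and FACT genes in the 6 libraries, with circles for vehicle and triangles for CBL0137. An asterisk marks genes called lower, and in each of these the CBL0137 libraries lie below the vehicle libraries by 0.44 to 0.80 on average.

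Cell cycle genes were lower in every CBL0137 library by the list median, but no mitotic gene passed the test. Over 40 mitosis genes the median was -0.64, and it was -0.32, -0.54 and -1.06 in replicates 1, 2 and 3 (limma called 0, while 15 had an unadjusted p under 0.05). Mki67, a proliferation marker, stood at 408, 281 and 325 and 260.1, 235 and 166 TPM (-0.62 ± 0.36, adjusted p = 0.3199), with the lowest value in replicate 3. Of 43 DNA replication genes 1 fell (median -0.26), Orc2, an origin recognition subunit, at 65.6, 66.3 and 64.4 and 50.3, 48.6 and 41.4 TPM (adjusted p = 0.0454, called in 0 of the 6 leave-one-out fits, up to 0.159). Among 30 p53 targets 4 rose and 1 fell (median 0.17), and 2, 3 and 0 rises were called without a vehicle replicate. Cdkn1a (p21), which halts the cell cycle, stood at 6.47, 4.56 and 3.86 and 15.8, 15.9 and 47.5 TPM (2.03 ± 0.36, adjusted p = 0.0107, and 0.0549 without vehicle replicate 3). Mdm2, the p53 ligase that p53 itself induces, stood at 51.7, 40.7 and 46.1 and 41.2, 37.1 and 46.9 TPM with overlapping groups (adjusted p = 0.505). The others that rose were Ptp4a3, a phosphatase (0.78 ± 0.14, called in 5 of the 6 leave-one-out fits, up to 0.0673), the stress cytokine Gdf15 (1.39 ± 0.30, called in 2 of the 6 leave-one-out fits, up to 0.0946) and the death factor Pmaip1 (1.29 ± 0.28, called in 3 of the 6 leave-one-out fits, up to 0.0975). Fbxw7, a ubiquitin ligase subunit, fell by 0.55 (called in 1 of the 6 leave-one-out fits, up to 0.117). Their adjusted p were 0.0135, 0.0262, 0.0272 and 0.0334.

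The genes of FACT and of the elongation machinery around it did not pass the test. These are RNA levels, and the trapping of FACT protein was not measured. Ssrp1, the HMG-box subunit of FACT, stood at 240.3, 223 and 219.8 and 205, 194 and 154 TPM (-0.31 ± 0.14, adjusted p = 0.196). Supt16, its partner, stood at 182, 152 and 156 and 139, 128 and 103 TPM (-0.41 ± 0.15, adjusted p = 0.124). In both the groups were apart, which holds downwards for 19.1% of tested genes, and replicate 3 was the lowest. Of 18 FACT and histone chaperone genes limma called 0 (median -0.33), and 5 had an unadjusted p under 0.05, all lower. Of 30 transcription elongation genes it called 0 (median -0.21), with 6 lower and 1 higher at an unadjusted p under 0.05. Of 34 Polycomb, DNA methylation and heterochromatin genes 1 fell, Bmi1, a Polycomb ring protein, at 125, 144 and 168 and 113, 105 and 91 TPM (-0.49 ± 0.12, adjusted p = 0.0405, called in 2 of the 6 leave-one-out fits, up to 0.151).

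Of 27 catecholamine and secretory granule genes 4 rose (14.8%, against 4.99% of all tested genes) and 0 fell, with a median of 0.49. Without replicate 3, 1 was called although the median was 0.47. Without any other of the 6 libraries at most 1 was called. Ddc stood at 252, 271 and 311 and 442, 514 and 365 TPM (0.65 ± 0.17, adjusted p = 0.0467) and was the gene still called, at 0.03902. Dbh, which makes noradrenaline, stood at 48.9, 14.8 and 33.4 and 90.5, 91.1 and 107 TPM (1.69 ± 0.38, adjusted p = 0.0289). Gch1, which makes the cofactor of Th and is also among the 8 called immune metabolism genes, stood at 23.1, 19.3 and 20.4 and 47.7, 30.1 and 42.6 TPM (0.88 ± 0.19, adjusted p = 0.02803). Each of these 3 calls held in 1 of the 6 leave-one-out fits (adjusted p up to 0.149, 0.102 and 0.105). Th itself stood at 179, 99.6 and 132 and 287, 249 and 342 TPM, with the groups apart (upwards so for 18.6% of tested genes) but no call (1.12 ± 0.37, adjusted p = 0.0999). Of 24 noradrenergic transcription factors limma called 0 (median -0.23, with 1 higher and 3 lower at an unadjusted p under 0.05).

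Among developmental factors, 4 of 34 fell and 1 rose (median -0.15). Without CBL0137 replicates 1, 2 and 3 in turn 3, 2 and 2 falls were called (median -0.28 without the last), and without a vehicle replicate 2, 3 and 1. Pbx3, a TALE homeobox cofactor, stood at 40.2, 44.5 and 34.7 and 24.6, 16.6 and 18.1 TPM (-0.99 ± 0.17, adjusted p = 0.0103). Nfib, a nuclear factor I protein, stood at 39.3, 22.4 and 26.2 and 13.6, 15.6 and 14.3 TPM (-0.93 ± 0.18, adjusted p = 0.0156, and 0.0504 without vehicle replicate 3). Tcf4, a helix-loop-helix factor, was also called lower (called in 0 of the 6 leave-one-out fits, up to 0.120), and Id3, an inhibitor of helix-loop-helix factors, rose by 1.58 ± 0.23 (adjusted p = 0.00372). Fut9, which builds the Lewis X sugar of neural cells, stood at 24.6, 31 and 26.6 and 11.9, 11.3 and 10.6 TPM (-1.21 ± 0.19, adjusted p = 0.00613). Fut9 and Pbx3 were the 2 of 28 falls chosen by the naming rule that were called in each of the 6 leave-one-out fits, against 45 of 68 rises chosen by it.

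Mfsd2a, a carrier of omega-3 lysolipids and the furthest fall among the named genes, stood at 5.12, 5.94 and 5.17 and 1.47, 1.66 and 1.32 TPM (-1.37 ± 0.30, adjusted p = 0.0272). Bdnf, a neurotrophin, stood at 21.9, 14 and 18.3 and 5.29, 10.7 and 4.64 TPM (-1.33 ± 0.32, adjusted p = 0.0397), and Kcng2, a modulatory potassium channel subunit, at 4.98, 9.2 and 7.96 and 2.34, 2.77 and 1.98 TPM (-1.29 ± 0.28, adjusted p = 0.0284). In all 3 each CBL0137 library was below each vehicle library, yet they were called in 0, 1 and 2 of the 6 leave-one-out fits and not without CBL0137 replicate 3 (adjusted p = 0.0896, 0.143 and 0.1001). Dixdc1 (WNT signalling), Mbnl3 (splicing), Slc25a13 (mitochondrial aspartate carrier), Hsph1 (chaperone), Smad9 (BMP signalling) and Gcat (threonine breakdown) fell by 0.83 to 0.90, with adjusted p from 0.0158 to 0.0491. None of these 6 was called without CBL0137 replicate 3 (adjusted p from 0.0508 to 0.171), and each was called in at most 2 of the 6 leave-one-out fits.

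Other families held few calls, with 0 to 2.6% of members higher against 4.99% of all tested genes. Of 335 C2H2 zinc finger genes named Zfp, 2 rose and 3 fell (median -0.12), among them Zfp36, which destabilises cytokine messenger RNA, at 1.89, 2.39 and 1.2 and 4.91, 4.17 and 11.7 TPM (adjusted p = 0.0316, called in 3 of the 6 leave-one-out fits, up to 0.123), Zfp467 at 1.47 ± 0.25 and Zfp148 at -0.41 ± 0.09 (called in 1 of the 6 leave-one-out fits, up to 0.111). Of 92 nuclear oxidative phosphorylation genes 1 rose and 1 fell (median 0.09), the assembly factor Ndufaf4 at -0.66 ± 0.12 (adjusted p = 0.0136, called in 4 of the 6 leave-one-out fits, up to 0.0606) and the testis form Cox6b2 at 0.96 ± 0.23 (adjusted p = 0.0362, called in 1 of the 6 leave-one-out fits, up to 0.115). Of 77 axon guidance genes 2 rose and 1 fell (median 0.08), Nrp1, a semaphorin receptor, at 1.27 ± 0.21, Dpysl3 at 1.10 ± 0.23 and Robo2, a Slit receptor, at -0.83 ± 0.21 (adjusted p = 0.00737, 0.0234 and 0.0494). The Nrp1 call held in 6, that of Dpysl3 in 2 and that of Robo2 in 1 of the 6 leave-one-out fits (up to 0.0425, 0.0861 and 0.159). Of 96 voltage-gated channels and of 93 glycosyltransferases 1 rose and 1 fell each, the rises being Kcnq3 and Fut4 at 0.88 and 0.82 (called in 1 and 0 of the 6 leave-one-out fits, up to 0.143 and 0.154). Of 49 Notch and BMP/TGF-beta genes 1 rose and 1 fell, and Tgfbr2, a TGF-beta receptor, rose by 1.41 ± 0.36 (adjusted p = 0.0494, called in 1 of the 6 leave-one-out fits, up to 0.161). Limma called 0 of 83 cadherins and protocadherins (3 higher and 2 lower at an unadjusted p under 0.05), 0 of 40 synaptic vesicle genes (0 at an unadjusted p under 0.05), 0 of 30 hypoxia and glycolysis genes (2 and 2) and 0 of 36 small nucleolar RNA genes (2 and 1). The medians of the neurotrophin, WNT, Notch, axon guidance, glycosyltransferase and hypoxia lists, at 0.04 to 0.20, were -0.24 to -0.0034 under quantile normalization, so no direction is given for them.

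The genes that rose were shorter on the chromosome than those that fell. Among protein-coding genes the median span was 15.1 kb for rises, 34.3 kb for falls and 23.6 kb for all tested genes, and genes over 100 kb made up 4.50%, 15.5% and 14.1% of these sets. Rises outside the interferon and MHC class I lists had a median span of 15.2 kb, and 14.5 kb inside. Exonic length followed the same order, at 3.21 kb for rises, 5.76 kb for falls and 4.37 kb for all. By span, 7.78% of the 3520 genes under 10 kb and 0.676% of the 444 genes over 300 kb rose, while 0.568% and 1.35% fell. The median change of the classes lay between -0.07 and 0.07, and in CBL0137 replicate 1 the median went from 0.03 under 10 kb to -0.19 over 300 kb, against 0.07 and 0.04 in replicate 3. This is a description across genes, which are not independent replicates.

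CBL0137 was set beside panobinostat, a histone deacetylase inhibitor given at 5 mg/kg into the peritoneum (2 libraries), to see which of these genes differed between the single treatments. CBL0137 was given into a vein, so here too the effects of route and drug cannot be told apart. Against panobinostat, 1056 genes were higher after CBL0137 and 1879 lower (6.81% and 12.1% of 15497), and 1339 and 1174 under quantile normalization. This contrast uses the same CBL0137 libraries as the one against vehicle, so the values are given side by side. Of the interferon list 80 of 167 members were higher and 2 lower than after panobinostat, while of the Fc receptor and phagocytosis list 0 were higher and 11 of 33 lower, of the lysosome list 0 and 13 of 27, and of matrix remodelling 0 and 21 of 30. Of the markers, 15 of 18 for macrophages, 13 of 17 for fibroblasts and pericytes and 1 of 14 for endothelium were lower too, and 0 higher. The part of cell content in these differences was not tested. Isg15 stood at 10.5 and 14.3 TPM in panobinostat replicates 1 and 3 (CBL0137 minus panobinostat 3.67 ± 0.41, adjusted p = 0.00468) and Serpina3g at 6.81 and 5.88 TPM (3.01 ± 0.89, adjusted p = 0.0423). Both were higher after CBL0137. Ctss, Clec2d and Cdkn1a, at 300.4 and 341, 106 and 119 and 23.5 and 23.5 TPM, did not differ past the threshold (-0.47 ± 0.28, -0.15 ± 0.43 and -0.03 ± 0.40, adjusted p = 0.254, 0.8204 and 0.963). Asns and Psat1 stood at 51.8 and 50 and 84.5 and 78.8 TPM (0.22 ± 0.15 and 0.41 ± 0.16, adjusted p = 0.319 and 0.0949), also below the vehicle range, whereas Nfib, at 37.4 and 33.8 TPM, was lower after CBL0137 (-1.24 ± 0.20, adjusted p = 0.00947). Without panobinostat replicate 3, which leaves 1 library on that side (its spread is taken from the other groups), limma called 0 genes in this contrast (4049 at an unadjusted p under 0.05).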

How the data were processed

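Total RNA of whole tumours was sequenced after ribosomal RNA depletion with a stranded kit, per the labels' protocols. The authors deposited TPM values for 24411 genes, made with STAR, SAMtools and RSEM on mm10 per the submitters' processing notes. Versions, annotation and strand setting are not given in the sources used here. Depth is unknown because TPM hold no read numbers, so no counting error can be given. Each library was checked to sum to 1000000. Symbols that a spreadsheet had made into dates (27 genes) were restored through RefSeq transcripts. Groups were taken from the labels.

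The minimum of 1 TPM in 2 or more of the 11 libraries left out 8914 genes. One limma 3.58.1 model (R 4.3.3) of log2(TPM + 1) fitted 4 group means over 11 libraries, with an eBayes trend, 7 residual degrees of freedom, 2-sided tests and Benjamini-Hochberg adjustment at 0.05. Fold changes are on this scale and understate those of low genes. An exact permutation test of 3 against 3 libraries could not go below p = 0.1. The p-values rest on the spread between mice within all 4 groups. The model was tested on simulated data. Promoter windows are RefSeq's on GRCm38.p6, matched by transcript.

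The members and lists were chosen with earlier results of these data known. Named genes are the 12 furthest called rises and falls outside the interferon and MHC class I lists (higher group mean of 5 TPM or more, no overlap), leaving out unnamed models, histone cluster, antigen receptor and small RNA genes, then from each list the called members with the smallest adjusted p (3 at most), and a panel of 9. Some genes that this rule chooses are not reported here. Any other gene named was chosen once its values had been seen. The alternatives tried were a pseudocount of 0.1 or 5, a 5 TPM filter or none, TMM factors computed by script, quantile normalization, rescaling without small RNA and histone genes, a replicate block, no trend, array weights, fewer groups, and leaving out libraries in turn. Python 3.11.15 made the tables and, with matplotlib 3.10.9, the figures. Panobinostat replicate 2 was not analysed here.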

Additional observations from a re-analysis of the deposited data

How the results depend on the processing

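All 96 named calls kept their sign wherever they were tested, and 292 of 1749 values of named genes under an alternative lost their call while 4 gained one. In the leave-one-out fits and with another pseudocount these signs could not change, because no called gene had overlapping groups. Mycn alone turned, to -0.0122 under quantile normalization. Against vehicle, 774 rises and 175 falls became 911 and 105 with TMM factors, 2634 and 2058 with array weights (which gave vehicle replicate 3 a weight of 9.01 and CBL0137 replicate 3 a weight of 0.370), 430 and 117 with a pseudocount of 5, and 693 and 82 without the trend. Leaving out 1 library gave 312 to 798 rises and 12 to 99 falls, with the fewest of both without vehicle replicate 3 and 19 falls without CBL0137 replicate 3. Outside the interferon and MHC class I lists the order was the same. Against panobinostat, 1056 higher and 1879 lower genes became 1703 and 2891 with array weights and 1339 and 1174 under quantile normalization, and 0 to 1299 and 0 to 2718 without 1 library. Replicate numbers did not pair the samples (same-numbered deviations correlated at -0.08, -0.08 and -0.04), and a replicate block gave 483 and 38 calls against vehicle and 414 and 835 against panobinostat. Medians of 9 lists near 0 changed sign under quantile normalization. Depth is unknown, so low genes such as Cd69, Irg1 and Il6 may rest on few reads. The cause of these differences was not tested.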

Other observations

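Some families were put together after their values were seen, so they carry no support beyond their values. Called higher were 5 of 10 annexins (median 1.00), 6 of 10 S100 proteins (median 1.72) and 5 of 7 galectins (median 1.5), with 0 falls in each, against 4.99% of all tested genes. Of the called galectins Lgals9 is also on the interferon list. Anxa1, an annexin that restrains neutrophil entry, stood at 35.4, 33.9 and 22.3 TPM in vehicle tumours and 134, 114 and 181 TPM in treated ones (2.19 ± 0.24, SE, limma adjusted p = 0.000772). S100a10, the partner of Anxa2, stood at 31.2, 25 and 21.2 and 77, 113 and 186 TPM (2.16 ± 0.30, adjusted p = 0.003096), and Lgals3, a galectin of macrophages, at 31.6, 47.6 and 35.3 and 149.7, 111 and 248 TPM (2.06 ± 0.26, adjusted p = 0.00185). S100a4 was close to equal among the CBL0137 libraries, at 22.9, 17.5 and 25.7 and 65.3, 69.3 and 70.5 TPM (1.60 ± 0.21, adjusted p = 0.00218), unlike most rises. All 4 were called in each of the 6 leave-one-out fits. Of 9 membrane-spanning 4A genes 7 rose (median 2.53), of which Ms4a4c and Ms4a6b are on the interferon list, and Ms4a4c went from 0.71, 1.29 and 0.22 to 25, 30.4 and 64.5 TPM. Tspo, a mitochondrial membrane protein of activated microglia and macrophages, stood at 12.7, 15.9 and 12.8 and 58.8, 82.7 and 147 TPM (2.62 ± 0.33, adjusted p = 0.00174).

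Ifnb1, the interferon beta ligand itself, was listed at 0 in all 3 vehicle libraries and stood at 4.23, 2.49 and 8.65 TPM after CBL0137 (adjusted p = 0.0272, called in 1 of the 6 leave-one-out fits, up to 0.102). Of 53 genes with translation initiation factor symbols 6 fell (median -0.22) and 2 rose, Eif4e3 and the interferon list member Eif2ak2. Without CBL0137 replicates 1, 2 and 3 in turn 4, 1 and 0 falls were called, and without vehicle replicates 1, 1 and 0. Of 8 CCT chaperonin subunits 2 fell (median -0.34), and the number called was 2 without CBL0137 replicate 1 and 0 in each of the other 5 leave-one-out fits. Eif5 stood at 232, 209 and 216 and 176, 165 and 159.7 TPM (-0.39 ± 0.08, adjusted p = 0.0264, called in 1 of the 6 leave-one-out fits, up to 0.0990), and Tcp1, a chaperonin subunit, at 580.4, 588 and 579 and 463, 440.1 and 351 TPM (-0.49 ± 0.11, adjusted p = 0.0342, called in 1 of the 6 leave-one-out fits, up to 0.116). Xpot, which exports transfer RNA from the nucleus, stood at 51.8, 48.5 and 49.2 and 38.9, 36.6 and 32.4 TPM (-0.46 ± 0.10, adjusted p = 0.0234, called in 1 of the 6 leave-one-out fits, up to 0.0941). The furthest called fall of any gene was Dlx6, a homeobox gene, at 6.85, 2.45 and 2.36 and 0.5, 0.62 and 0 TPM (-1.74 ± 0.42, adjusted p = 0.0382, called in 0 of the 6 leave-one-out fits, up to 0.140), below the level set for naming, and its neighbour Dlx5 stood at 7.15, 2.83 and 5.61 and 1.89, 2.11 and 0.28 TPM without a call (adjusted p = 0.0758). Of the 774 rises 452 and of the 175 falls 132 were on none of the lists.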
